A study of Arabidopsis thaliana with 12 samples.

Results

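The small auxin-up RNA (SAUR) genes of Arabidopsis thaliana were followed in leaf RNA of 3 mutant lines and the wild type. A gene was taken as a SAUR gene if its name in the deposited table began with SAUR or its description contained the word, which gave 78 genes of 33197 with a gene identifier. The table itself named 21 of them, and the other 57 were named from the RefSeq gene table of the same loci. A total of 42 of the 78 had a mean abundance of at least 1 over the 12 libraries and were tested. All 12 libraries came from leaves 18 days old, 3 each of the lines labelled anac017, anac082 and anac090 and of the wild type, ecotype Columbia (Col), which is the parent of the mutants. By the labels the mutants are knockouts from T-DNA insertion collections, each of 1 NAC transcription factor gene, and all plants grew under 16 h of light and 8 h of dark at 22 °C. The sources used here do not give the position of each insertion or the number of independent lines behind a mutant. The labels do not state whether replicates are separate plants, and p-values here measure the spread among libraries, which may be technical.

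SAUR genes are among the earliest plant genes to respond to auxin, and most encode short proteins from short-lived messages. In the acid growth model, SAUR proteins inhibit PP2C.D phosphatases, which keeps the proton pumps of the plasma membrane phosphorylated and active, so that the wall is acidified and the cell expands. Besides auxin, brassinosteroid, light, temperature and the circadian clock act on many members through ARF, BZR1 and PIF transcription factors. Among members studied in leaves, SAUR36 (also SAG201) and SAUR49 promote leaf senescence, the programmed ageing in which NAC factors are prominent regulators.

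The targeted genes were read first. ANAC017 averaged 6.75 ± 0.08 in the libraries labelled anac017 and 5.89 ± 0.10 in wild type, as log2 of the abundance plus 1 (SD, n = 3 each, limma adjusted p = 0.0152). ANAC082 averaged 9.82 ± 0.10 under the label anac082 and 5.02 ± 0.05 in wild type (limma adjusted p = 2.68e-09). ANAC090 averaged 0.95 ± 0.26 under the label anac090 and 1.54 ± 0.20 in wild type (limma adjusted p = 0.192). Transcript of the targeted gene was therefore higher in the libraries labelled anac017 and anac082 than in wild type, which goes against a knockout read as loss of the message, and gene-level values do not show whether that message was complete. ANAC082 was also higher under the label anac017, at 6.06 ± 0.11 (limma adjusted p = 0.00137). ANAC090 averaged 2.64 ± 0.74 under the label anac017 (limma adjusted p = 0.0751). ANAC082 averaged 5.37 ± 0.21 under the label anac090 (limma adjusted p = 0.0647). The last 2 passed with the replicate number as a block (limma adjusted p = 0.0495 and 0.022). ANAC017 under the labels anac082 and anac090, and ANAC090 under the label anac082, did not pass. The groups are called anac017, anac082 and anac090 below for the labels of their libraries, and every direction given is that of the labelled libraries. Genes of leaf mesophyll, 7 of 7 detected, had summed levels of 13.05 to 13.19 in anac017, 13.19 to 13.23 in anac082, 12.82 to 13.14 in anac090 and 13.19 to 13.37 in wild type (log2 of the summed abundance plus 1), and 4 flower organ genes had 0.53 to 0.96 in anac017, 0.81 to 1.03 in anac082, 0.86 to 0.99 in anac090 and 1.19 to 1.77 in wild type. On the first principal component of the tested genes, which held 51.0% of the variance, anac082 replicate 1 lay at -27, near the wild type libraries at -35.6 to -29.7, while the other anac082 libraries lay at 3.6 and 5.7. The library of anac090 replicate 3 lay at 74.1, against 15.9 and -12.7 for the other anac090 libraries. Counts of SAUR genes are given with and without both of these libraries.

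The SAUR family in this genome is made of compact genes, many of them side by side. In the RefSeq annotation (TAIR10.1), 75 of the 78 SAUR genes (96.2%) had a coding sequence uninterrupted by introns, against 23.3% of 27444 protein-coding genes. Their median coding length was 120 codons (86 to 190), against a median of 348 for all protein-coding genes. With starts no more than 20 kb apart, 37 members fell into 8 tandem clusters of 2 to 8 genes, and 28 of these 37 were tested. Clusters of 8 genes on chromosome 1 (SAUR61 to SAUR68), 4 on chromosome 4 (SAUR13 to SAUR16) and 6 on chromosome 5 (SAUR19 to SAUR24) held most of the members described below. Near-identical copies limit what gene-level values can separate. The closest copies of the 6 genes of the SAUR19 cluster were 91.3% to 95.2% identical in coding sequence, SAUR63 and SAUR67 were each other's closest copies, and SAUR62 was 97.0% identical to SAUR75, a single gene that was not tested. In all, 9 of the 42 tested members had a copy at 90% or more, and reads shared between such copies could have been divided either way by the authors' pipeline. SAUR14, SAUR15 and SAUR16 are less alike, at 49.7% to 63.3%, so their reads are easier to tell apart.

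The stretches just before 6 SAUR genes are shown because these genes carry the main changes below and differ in the short elements they hold. Each is the 250 bases upstream of the gene start in RefSeq (TAIR10.1), 5′ to 3′ on the strand of the gene, and RefSeq starts need not be those of the deposited table. SAUR14 and SAUR15 are divergent neighbours in the chromosome 4 cluster, and their stretches lie at chr4:18125560-18125809 on the minus strand and chr4:18125807-18126056 on the plus strand. That of SAUR16 lies at chr4:18129987-18130236, that of SAUR12 at chr2:9088976-9089225, that of SAUR67 at chr1:10322173-10322422 and that of SAUR9 at chr4:17089684-17089933, all on the plus strand. Capitals mark matches, on either strand, to the E-box CACATG bound by PIF and related factors, to the auxin response factor element TGTCNC and to the TCP site GGNCCC; none of the matches printed here overlap.
SAUR14: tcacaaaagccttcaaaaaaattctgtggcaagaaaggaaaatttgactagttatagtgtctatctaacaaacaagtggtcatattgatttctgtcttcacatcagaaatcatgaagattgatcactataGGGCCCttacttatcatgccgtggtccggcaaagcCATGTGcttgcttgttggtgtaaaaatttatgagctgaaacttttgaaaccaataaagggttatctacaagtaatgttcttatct
SAUR15: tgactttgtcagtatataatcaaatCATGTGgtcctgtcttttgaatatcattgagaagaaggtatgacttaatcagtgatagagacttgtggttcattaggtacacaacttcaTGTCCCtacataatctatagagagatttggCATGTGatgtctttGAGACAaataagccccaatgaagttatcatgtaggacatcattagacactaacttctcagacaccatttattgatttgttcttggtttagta
SAUR16: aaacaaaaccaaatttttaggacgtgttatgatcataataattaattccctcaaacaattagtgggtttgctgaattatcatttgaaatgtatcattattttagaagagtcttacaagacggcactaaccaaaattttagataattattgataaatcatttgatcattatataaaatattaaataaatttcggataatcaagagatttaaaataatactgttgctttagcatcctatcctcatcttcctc
SAUR12: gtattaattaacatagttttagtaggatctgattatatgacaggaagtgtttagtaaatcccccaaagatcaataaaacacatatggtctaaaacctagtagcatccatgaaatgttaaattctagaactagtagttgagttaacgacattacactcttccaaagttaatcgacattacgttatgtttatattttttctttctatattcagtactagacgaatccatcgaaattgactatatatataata
SAUR67: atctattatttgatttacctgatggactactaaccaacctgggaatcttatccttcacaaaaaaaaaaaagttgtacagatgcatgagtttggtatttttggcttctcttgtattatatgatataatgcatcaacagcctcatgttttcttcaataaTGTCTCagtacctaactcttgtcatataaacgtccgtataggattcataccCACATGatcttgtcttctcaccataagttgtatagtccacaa
SAUR9: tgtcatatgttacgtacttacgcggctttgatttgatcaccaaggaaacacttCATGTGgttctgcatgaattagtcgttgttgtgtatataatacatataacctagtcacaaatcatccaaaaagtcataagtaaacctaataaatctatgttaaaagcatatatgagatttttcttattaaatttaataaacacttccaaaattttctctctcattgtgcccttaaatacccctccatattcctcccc
SAUR15 holds matches to CACATG at -225 and -106 and to TGTCNC at -136 and -92, counted to the first base of the match from the gene start. SAUR14 has a CACATG match at -85 and a GGNCCC match at -120, SAUR67 has TGTCNC at -93 and CACATG at -42, SAUR9 has CACATG at -197, and SAUR12 and SAUR16 have no match to any of the 3.

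The first comparison asks how the leaf transcriptome of the line labelled anac017 differs from wild type at this age. In anac017, 5 SAUR genes were lower, and all 5 belong to tandem clusters: SAUR14, SAUR15, SAUR16, SAUR12 and SAUR67, with log2 changes of -1.85 to -1.13. No member passed in the upward direction. The 28 tested cluster members had a median log2 change of -1.28, and 28 of 28 were below 0, while the 14 single genes had a median of 0.10, with 6 of 14 below 0. Over all 42 members the median was -1.07 (range -1.85 to 1.48) and 34 of 42 were below 0, against a median of -0.02 and 53.2% below 0 for the 16817 genes tested. These tallies, here and in the later comparisons, include 9 members that reached the level for testing in some groups only. Among them are the cluster genes SAUR61, SAUR7, SAUR12, SAUR28, SAUR27, SAUR26 and SAUR1. The inclusion of all 9 rests on the groups where they were higher.

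SAUR15, long used as the auxin marker SAUR-AC1, is the member with the smallest p (AT4G38850). Its log2 values were 3.27, 3.47 and 3.42 in anac017, against 4.75, 4.65 and 5.11 in wild type. All 3 anac017 libraries lay more than 1 unit below the lowest wild type library. The log2 change was -1.45 ± 0.24 (SE), a level 0.365 times that of wild type, with an adjusted p of 0.0168 in limma. Its divergent neighbour SAUR14 (AT4G38840) had 5.28, 5.47 and 5.59 in anac017, against 6.41, 6.53 and 6.79 in wild type. The groups again did not overlap, and the log2 change of SAUR14 was -1.13 ± 0.20 (limma adjusted p = 0.0209). SAUR16 (AT4G38860), which with SAUR14 and SAUR50 belongs to the SAUR genes that light induces in cotyledons, had 5.99, 6.32 and 6.20 in anac017, against 7.35, 7.49 and 7.59 in wild type. It fell by 1.31 ± 0.23 on the log2 scale, with the groups apart (limma adjusted p = 0.0197). The fourth gene of this cluster, SAUR13, was not tested.

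SAUR12 and SAUR67 showed the lowest log2 changes of the family. SAUR12 (AT2G21220) was listed at 0 in all 3 anac017 libraries, against 2.37, 1.00 and 2.17 in wild type. It was listed above 0 in every library of the other groups, at 1.75 to 2.42 in anac082 and 1.14 to 2.16 in anac090. The difference of -1.85 ± 0.36 passed the test (limma adjusted p = 0.0302), but a listed 0 can be a failed estimate, so no fold is given; without SAUR12 the median of the other 41 members was -1.02. The closest relative of SAUR12 is SAUR16, on another chromosome and 85.5% identical in coding sequence. SAUR67 (AT1G29510), of the cluster whose member SAUR63 promotes organ elongation, had 1.30, 2.06 and 1.06 in anac017, against 3.00, 3.47 and 3.34 in wild type. The groups lay apart, with a log2 change of -1.80 ± 0.36 (limma adjusted p = 0.0326).

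**Figure D1:**
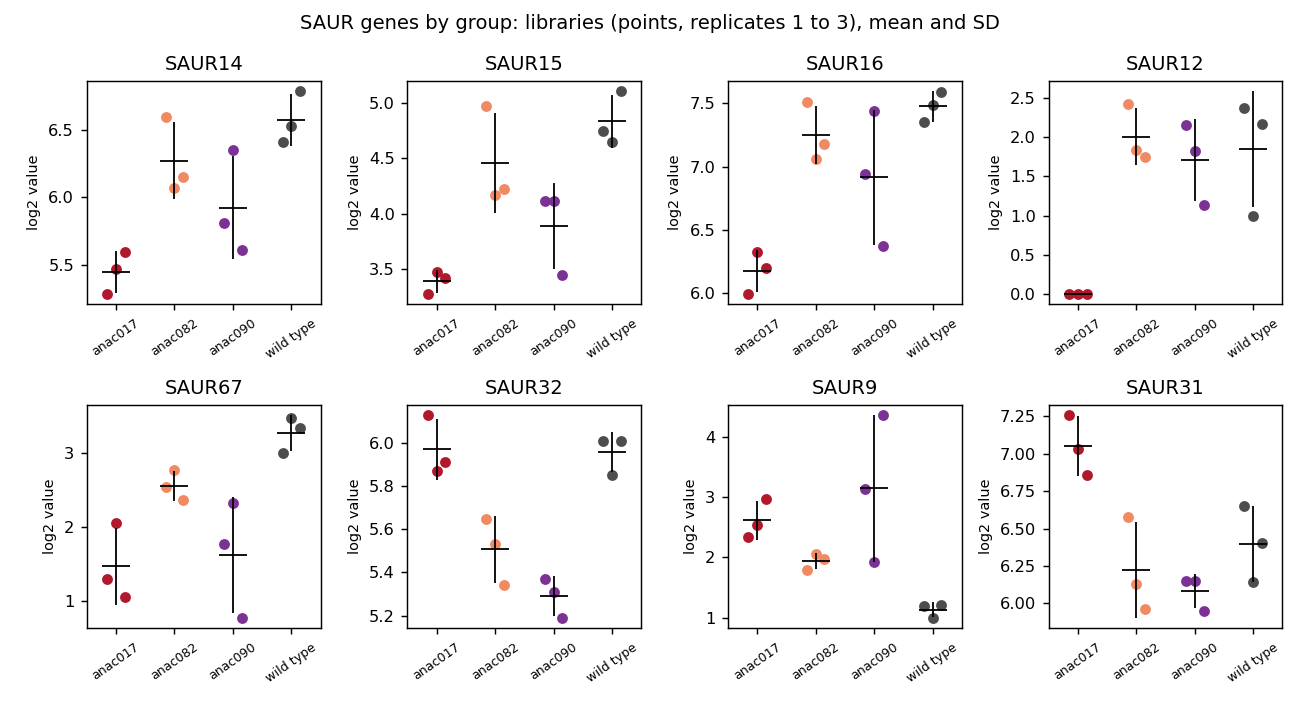
Log2 values (vertical axis, log2 of abundance plus 1, a separate range in each panel) of 8 SAUR genes in each library of anac017, anac082, anac090 and wild type (horizontal axis). Points are replicates 1 to 3 from left to right, the horizontal line is the group mean and the bar its SD; SAUR15 lies at 3.27 to 3.47 in anac017, below its wild type values of 4.65 to 5.11, SAUR12 is listed at 0 in anac017 only, and SAUR32 is lowest in anac090.

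The 5 lower calls were 11.9% of the tested members, beside 0.612% of all 16817 genes called lower and 1.47% called higher in the same comparison. At an unadjusted p under 0.05, 27 members (64.3%) were lower and 2 (4.76%) higher, beside 13.2% and 12% of all genes. The values of the groups did not overlap, with anac017 lower, in 28 of 42 members (66.7%), against 22.6% of all genes; with anac017 higher, the count was 6 of 42 (14.3%), against 19.0%. With the replicate number as a block, 18 members were lower and 1 higher, beside 3.05% and 4.11% of all genes, and without the 2 libraries that stand apart the counts were 24 and 3, beside 11.2% and 10.5%; all 5 calls passed in both. The count depended on the libraries: it was 0, 1 and 0 without anac017 replicate 1, 2 and 3, 3, 1 and 0 without wild type replicate 1, 2 and 3, 3 without anac082 replicate 3, and 19 and 23 without anac090 replicate 2 and 3, which enter this comparison only through the shared estimate of spread. Without these anac090 libraries, 4.57% and 9.2% of all genes were called lower, so that calls over all genes were also more frequent. Where the count fell, calls over all genes were also fewer. The shares called lower were 0.0178%, 0.0951% and 0.0238% without anac017 replicate 1, 2 and 3. They were 0.125%, 0.0297% and 0.0476% without wild type replicate 1, 2 and 3, and 0.184% without anac082 replicate 3. The median of the 42 members stayed between -1.13 and -1.0 in these fits.

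**Figure D2:**
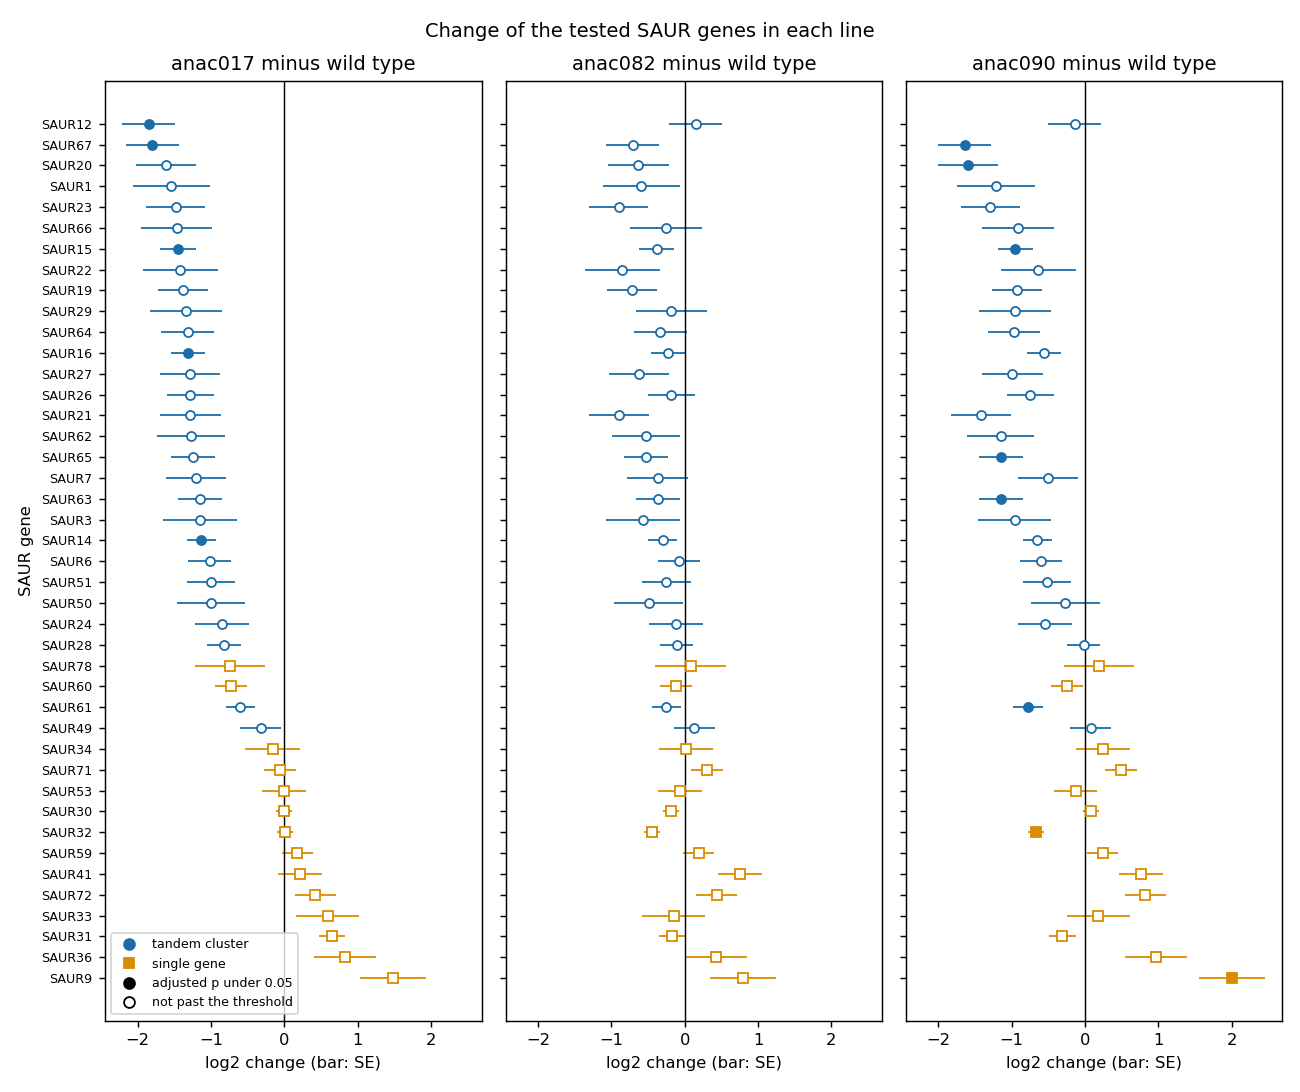
Log2 change from wild type (horizontal axis, bar: SE) of the 42 tested SAUR genes (vertical axis, ordered by the change in anac017) in anac017, anac082 and anac090. Circles are genes in tandem clusters and squares single genes, filled where the limma adjusted p was under 0.05; in anac017 all circles lie left of 0, while SAUR9 and SAUR32 are the filled squares in anac090.

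The changes in anac017 are given here cluster by cluster. In the chromosome 1 cluster the 7 tested genes had log2 changes of -1.80 to -0.60, and the groups did not overlap in any of the 7. In the chromosome 5 cluster, SAUR19 to SAUR24, whose proteins promote cell expansion when stabilised as fusion proteins, the 6 genes had changes of -1.61 to -0.85, and the groups lay apart in 5. None of these 6 passed the test without the block; SAUR19 had 1.39, 1.66 and 0.89 in anac017, against 2.71, 3.05 and 2.32 in wild type (log2 change -1.38 ± 0.34, limma adjusted p = 0.0617, and 0.00738 with the block). The 4 tested genes of SAUR26 to SAUR29 had changes of -1.34 to -0.82, those of the cluster of SAUR7, SAUR6 and SAUR12 -1.85 to -1.02, and those of the cluster of SAUR49, SAUR50, SAUR1 and SAUR3 -1.54 to -0.32. SAUR51, the 1 tested gene of its pair, had a change of -1.0, and neither SAUR70 nor SAUR76, the last pair, was tested. Neighbours and copies share sequence and surroundings, so these genes are not independent of each other.

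None of the 14 single genes passed in anac017 without the block. SAUR60 had 1.98, 1.93 and 1.42 in anac017, against 2.68, 2.22 and 2.64 in wild type, with the groups apart. Its log2 change was -0.73 ± 0.22, with a limma adjusted p of 0.0905, and 0.0391 with the block. SAUR31 (AT4G00880) had 7.26, 7.03 and 6.86 in anac017, against 6.65, 6.14 and 6.40 in wild type, with all anac017 values above all wild type values. Its log2 change was 0.65 ± 0.18, with a limma adjusted p of 0.0742, and 0.0217 with the block. SAUR9, whose protein inhibits a PP2C.D phosphatase, had 2.33, 2.54 and 2.97 in anac017, against 1.19, 1.00 and 1.22 in wild type. The groups did not overlap, but the log2 change of 1.48 ± 0.45 did not pass (limma adjusted p = 0.0943). SAUR30 and SAUR32 had log2 changes of 0.00 ± 0.11 and 0.01 ± 0.11. Their standard errors are among the smallest of the family.

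The members known for leaf senescence did not pass. SAUR36 had 1.40, 1.96 and 1.93 in anac017, against 1.09, 0.76 and 0.95 in wild type. Its groups lay apart, with a log2 change of 0.83 ± 0.42 (limma adjusted p = 0.240). SAUR49 had 4.03, 3.35 and 3.96 in anac017, against 4.32, 3.86 and 4.12 in wild type, with overlapping groups and a log2 change of -0.32 ± 0.28 (limma adjusted p = 0.492). Of the 10 tested members with the highest mean value over the 12 libraries, SAUR16, SAUR31, SAUR78, SAUR14, SAUR6, SAUR59, SAUR32, SAUR71, SAUR41 and SAUR65 in descending order from 6.96 to 4.29, only SAUR16 and SAUR14 passed in anac017. The sources used here do not say whether the deposited values are per length, so this order served to choose genes and is not a comparison of message abundance.

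The second comparison sets the line labelled anac082 against wild type. No SAUR gene passed the test in either direction with limma, beside 0.0178% of all genes called lower and 0.0297% called higher. At an unadjusted p under 0.05, 2 members (4.76%) were lower and 1 (2.38%) higher, beside 3.46% and 3.71% of all genes, and with the block the counts were also 0 and 0, beside 0.0119% and 0.0238% of all genes. The median of the 42 members was -0.24, against -0.01 for all genes; the cluster members had a median of -0.36, with 26 of 28 below 0 beside 52.5% of all genes, and the single genes 0.05. Values lay apart with anac082 lower in 5 of 42 members (11.9%), against 10.3% of all genes, and with anac082 higher in 4 of 42 (9.52%), against 8.37%. SAUR32 had the smallest p, with 5.65, 5.53 and 5.34 in anac082, against 6.01, 5.85 and 6.01 in wild type. The groups did not overlap, and the log2 change was -0.45 ± 0.11 (limma adjusted p = 0.570). Without anac082 replicate 1 and anac090 replicate 3, 3 members were called lower, beside 1.8% of all genes, and 0 higher, beside 2.48%, and the median was -0.36.

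The third comparison sets the line labelled anac090 against wild type. Cluster genes were again the lower ones: SAUR61, SAUR63, SAUR65 and SAUR67 of chromosome 1, SAUR15 of chromosome 4 and SAUR20 of chromosome 5 passed, as did the single gene SAUR32, and the single gene SAUR9 was higher. The 28 cluster members had a median log2 change of -0.92, with 27 of 28 below 0 beside 53.9% of all genes, and the 14 single genes a median of 0.22. Over the 42 members the median was -0.58, against -0.03 for all genes. This comparison shares its wild type libraries with the others, so the lower values of the same genes in anac017 and anac090 are not separate observations.

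SAUR32 (AT2G46690) gave the smallest p. Its log2 values were 5.37, 5.31 and 5.19 in anac090, against 6.01, 5.85 and 6.01 in wild type. The groups lay well apart with little spread, and the log2 change was -0.67 ± 0.11 (limma adjusted p = 0.0222). SAUR9 (AT4G36110) had 3.14, 1.93 and 4.36 in anac090, against 1.19, 1.00 and 1.22 in wild type. Every anac090 value was above every wild type value, but the anac090 libraries differed widely among themselves, and replicate 3 was the highest. SAUR9 rose by 2.01 ± 0.45 on the log2 scale (limma adjusted p = 0.0369), and by 1.40 without the 2 libraries that stand apart (limma adjusted p = 0.0386). SAUR67 had 1.77, 2.32 and 0.78 in anac090, against 3.00, 3.47 and 3.34 in wild type, with no overlap. It changed by -1.64 ± 0.36 (limma adjusted p = 0.0356). SAUR15 had 4.11, 4.11 and 3.44 in anac090, against 4.75, 4.65 and 5.11 in wild type. The groups did not overlap, and the change of -0.95 ± 0.24 passed (limma adjusted p = 0.0418). Its cluster mates SAUR14 and SAUR16 had log2 changes of -0.65 ± 0.20 (limma adjusted p = 0.0631) and -0.56 ± 0.23 (limma adjusted p = 0.118), and SAUR12 had -0.14 ± 0.36 (limma adjusted p = 0.811).

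SAUR20 had 3.32, 3.71 and 1.93 in anac090, against 4.26, 4.85 and 4.64 in wild type (log2 change -1.60 ± 0.41, limma adjusted p = 0.0456). SAUR65 had 3.93, 4.41 and 3.31 in anac090, against 4.65, 5.28 and 5.14 in wild type (log2 change -1.14 ± 0.30, limma adjusted p = 0.0459). In both, anac090 replicate 3 was the lowest library and the groups did not overlap. SAUR63 had 3.18, 3.62 and 2.45 in anac090, against 3.83, 4.70 and 4.14 in wild type, and SAUR61 had 0.86, 1.00 and 0.64 in anac090, against 1.26, 1.76 and 1.8 in wild type. Their log2 changes were -1.14 ± 0.30 (limma adjusted p = 0.0476) and -0.78 ± 0.20 (limma adjusted p = 0.0433), again with the groups apart. Without anac082 replicate 1 and anac090 replicate 3, the limma adjusted p was 0.0657 for SAUR20, 0.115 for SAUR65, 0.110 for SAUR63 and 0.106 for SAUR61.

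The 7 lower calls were 16.7% of the tested members, beside 3.65% of all genes, and the 1 higher call was 2.38%, beside 3.66%. The values lay apart with anac090 lower in 14 of 42 members (33.3%), against 18.2% of all genes. With anac090 higher, the count was 2 of 42 (4.76%), against 13.4% of all genes. With the block, 13 members were lower and 3 higher, beside 10.1% and 8.19% of all genes, and the higher ones were SAUR9, SAUR71 and SAUR72. The count of lower members was 1, 19 and 1 without anac090 replicate 1, 2 and 3, 0 without any one of the wild type libraries, 1, 2 and 1 without anac017 replicate 1, 2 and 3, and 3, 1 and 1 without anac082 replicate 1, 2 and 3; without anac082 replicate 1 and anac090 replicate 3 together it was 3, beside 2.38% of all genes, with 1 higher, beside 2.88%. SAUR9 was the 1 higher member, and the higher count was 6 without anac090 replicate 2, 1 without anac082 replicate 1 and 0 without any other single library. Without anac090 replicate 2, 16.0% of all genes were called lower and 13.8% higher, so the 6 higher members are near the share of all genes. Where the lower count fell, calls over all genes fell too. The shares called lower were 1.02% and 0.601% without anac090 replicate 1 and 3. They were 0.0119%, 0.0119% and 0.0238% without wild type replicate 1, 2 and 3. Without anac017 replicate 1, 2 and 3 they were 0.928%, 0.416% and 0.345%. Without anac082 replicate 1, 2 and 3 they were 2.81%, 0.63% and 0.262%. SAUR36 had 1.73, 0.95 and 3.02 in anac090, against 1.09, 0.76 and 0.95 in wild type, overlapping at a log2 change of 0.97 ± 0.42 (limma adjusted p = 0.143). SAUR49 had a log2 change of 0.08 ± 0.28 (limma adjusted p = 0.873). SAUR78 had 6.11, 7.99 and 5.49 in anac090, against 6.03, 6.45 and 6.54 in wild type, so that 1 library set its mean.

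**Figure D3:**
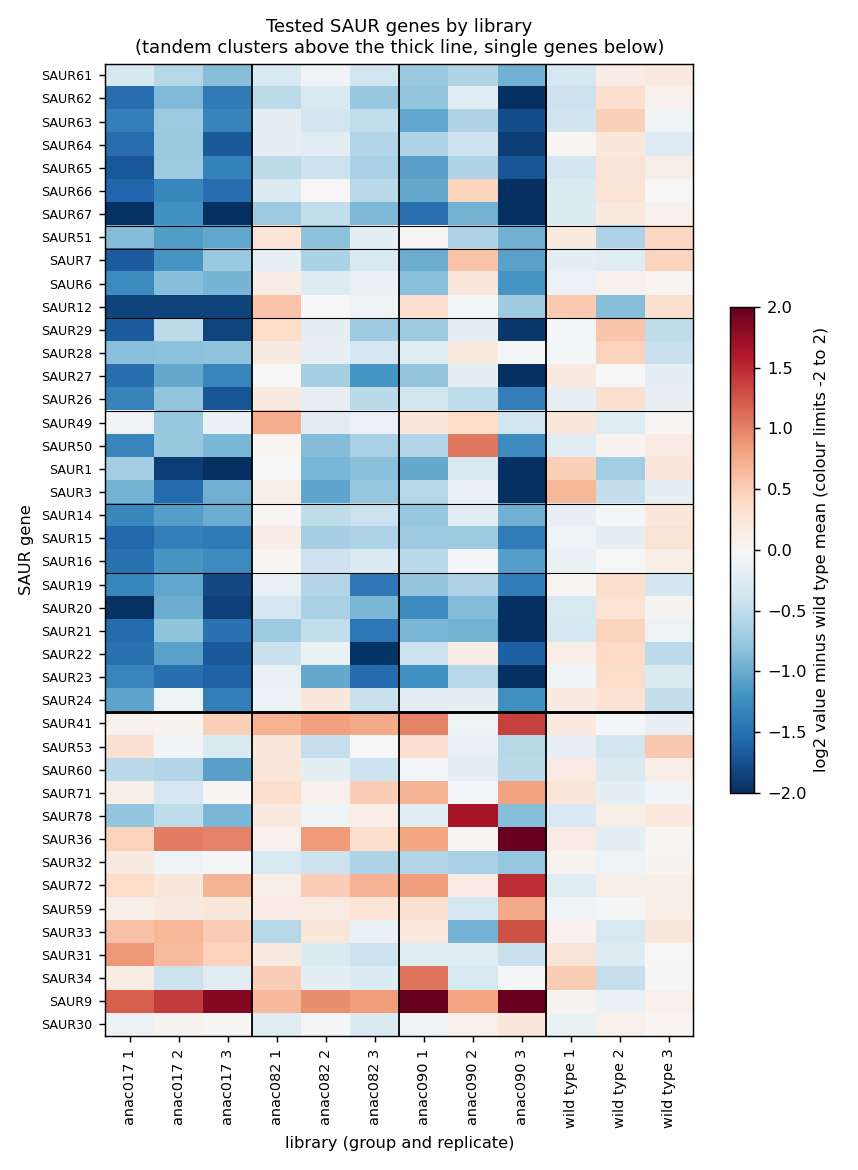
Log2 value of each tested SAUR gene (rows, genome order within clusters, clusters above the thick line) in each library (columns) minus the wild type mean of the gene, with colours limited to -2 and 2. The cluster genes are lower than wild type throughout anac017 and for nearly all genes in anac090 replicate 3, and single genes such as SAUR9 and SAUR36 are above their wild type mean there.

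Set against each other, the mutants differed in 3 members. SAUR12 was lower in anac017 than in anac082 (log2 difference -2.0 ± 0.36, limma adjusted p = 0.0287) and than in anac090 (-1.71 ± 0.36, limma adjusted p = 0.0434). It was listed at 0 in every anac017 library, which can be a failed estimate. Its inclusion in the test rests on the other groups, so these 2 differences carry that limit. In anac017 against anac090, SAUR32 and SAUR31 were higher. SAUR32 had 6.13, 5.87 and 5.91 in anac017, against 5.37, 5.31 and 5.19 in anac090 (log2 difference 0.68 ± 0.11, limma adjusted p = 0.0106). SAUR31 had 7.26, 7.03 and 6.86 in anac017, against 6.15, 6.15 and 5.95 in anac090 (log2 difference 0.96 ± 0.18, limma adjusted p = 0.0230). No values overlapped in these differences. The background was 0.119% of all genes called lower and 0.773% higher in anac017 against anac082, and 0.172% lower and 1.31% higher in anac017 against anac090. With the block, 2 members were lower and 2 higher in anac017 against anac082, beside 0.327% and 1.19% of all genes: SAUR12 and SAUR26 were the lower ones and SAUR31 and SAUR32 the higher. The lower count in anac017 against anac082 was 0 without any one of the anac017 or anac082 libraries, beside 0.0357% to 0.0654% of all genes. It was 4 without anac090 replicate 2 or 3, beside 0.202% and 0.422% of all genes. In anac017 against anac090 the lower count was 0 without any one of the anac017 or anac082 libraries, anac090 replicate 1 or wild type replicate 3. In those fits 0.0357% to 0.137% of all genes were lower. The lower count was 2 without anac090 replicate 3, beside 0.131% of all genes. In anac017 against anac090 the 2 higher members were 0 without anac017 replicate 1, beside 0.422% of all genes. They were 1 without anac017 replicate 2 or 3 or anac090 replicate 1 or 3, beside 0.505%, 0.577%, 1.02% and 0.969%. No member passed in anac082 against anac090, where 0.0119% of all genes were called higher and 0% lower. The median difference of the 42 members was -0.66 for anac017 against anac082, -0.40 for anac017 against anac090 and 0.28 for anac082 against anac090, beside medians of -0.01, 0.00 and 0.02 for all genes. Without the 2 libraries that stand apart these medians were -0.46, -0.63 and -0.03, so the last one turned direction.

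Library by library, the mean of the 42 members lay below the wild type mean by the most in anac017. Relative to wild type it was -0.81, -0.62 and -0.85 in anac017, 0.00, -0.24 and -0.43 in anac082, -0.31, -0.16 and -0.85 in anac090 and -0.01, 0.00 and 0.01 in wild type. The anac017 libraries were all below every wild type library, and anac090 replicate 3 was as low as the lowest anac017 library. Since many SAUR genes follow the day, the clock was read in the same libraries from CCA1 and LHY, which peak in the morning (their mean log2 value), minus the mean of the evening genes TOC1, GI, ELF4, LUX and PRR5. This index was 0.40, 2.13 and 1.76 in anac017, 0.69, 2.35 and 2.25 in anac082, 0.62, 1.86 and 1.89 in anac090 and 1.5, 3.22 and 2.94 in wild type. Replicate 1 was lowest in every group, and in each replicate number the mutants were below wild type. The group means of both measures were lower in each mutant than in wild type. Within wild type, the SAUR mean was -0.01 at the lowest index and 0.00 and 0.01 at the others, but single members moved either way. In wild type replicates 1, 2 and 3, SAUR67 had 3.00, 3.47 and 3.34, and SAUR1 had 2.75, 1.59 and 2.5. Of the 9 clock genes tested, none passed in anac017, and PRR9 was lower in anac090 (log2 change -0.47 ± 0.12, limma adjusted p = 0.0454). With the replicate block, which removes the difference between replicate numbers, CCA1 was lower in anac017 (-0.80, limma adjusted p = 0.00133) and TOC1 (0.63, limma adjusted p = 0.0253), PRR5 (1.01, limma adjusted p = 0.0183) and ELF4 (0.70, limma adjusted p = 0.0278) were higher. In anac090 with the block, 3 clock genes were lower, CCA1 among them (-0.69, limma adjusted p = 0.00492), and 2 were higher. The shares of all genes with the block were 3.05% lower and 4.11% higher in anac017, and 10.1% and 8.19% in anac090. The part of the clock in the SAUR differences was not tested.

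**Figure D4:**
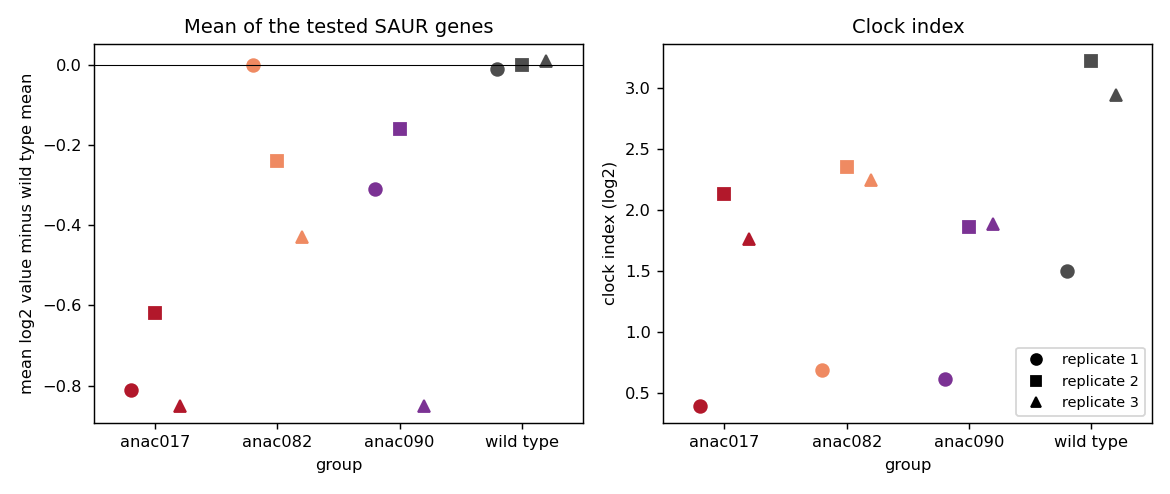
Left, mean over the 42 tested SAUR genes of the log2 value minus the wild type mean, for each library of anac017, anac082, anac090 and wild type; right, the clock index of the same libraries (CCA1 and LHY minus 5 evening genes, log2). Symbols give the replicate number; the SAUR mean is -0.85 to -0.62 in anac017 and -0.01 to 0.01 in wild type, and the clock index is lowest in replicate 1 of every group.

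Other cell markers moved in part with the SAUR genes. The 4 epidermis genes, all detected, had summed levels of 6.37 to 6.8 in anac017, 6.66 to 6.90 in anac082, 5.54 to 7.13 in anac090 and 7.0 to 7.48 in wild type. None of the 4 passed in any comparison with wild type without the block. The 4 senescence genes had summed levels of 6.95 to 7.26 in anac017, 6.11 to 7.15 in anac082, 6.47 to 8.69 in anac090 and 6.41 to 6.55 in wild type. SAG12, the marker of late senescence, was listed at 0 in 11 of 12 libraries. With the replicate block, the leaf mesophyll genes CA1 (log2 change -1.14, limma adjusted p = 0.0460) and RBCS3B (-0.54, limma adjusted p = 0.0466) were lower in anac090, 2 of 7. In that fit 10.1% of all genes were lower and 8.19% higher in anac090. Also with the block, ATML1 of the epidermis was lower in anac090 (log2 change -0.71, limma adjusted p = 0.0474) and SAG13, a marker of early senescence, was higher in anac090 (2.92, limma adjusted p = 0.0212). No other senescence gene passed there. NAC092 had 5.35, 4.34 and 5.22 in anac090, against 5.83, 5.48 and 5.22 in wild type. NYE1 had 5.06, 5.04 and 5.87 in anac090, against 4.92, 5.25 and 4.97 in wild type. The 4 vasculature genes had summed levels of 7.66 to 7.94 in anac017, 7.61 to 7.84 in anac082, 7.37 to 7.84 in anac090 and 7.66 to 8.00 in wild type. The 4 guard cell genes had 4.54 to 4.62 in anac017, 4.54 to 4.89 in anac082, 4.80 to 4.93 in anac090 and 4.80 to 4.88 in wild type. With the block FAMA was lower in anac017 (-0.53, limma adjusted p = 0.0475), beside 3.05% of all genes. The 4 genes of dividing cells had 2.87 to 3.37 in anac017, 3.25 to 3.32 in anac082, 2.47 to 3.21 in anac090 and 2.92 to 3.41 in wild type. Their part in the SAUR differences was not tested. In whole leaves, fewer cells of a type and less RNA per cell cannot be told apart.

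Few genes that act on SAUR genes or beside them passed without the replicate block. Of all genes, 0.612% were called lower and 1.47% higher in anac017, and 3.65% and 3.66% in anac090. In anac017 against wild type none of the 6 auxin receptors passed (median log2 change -0.29), none of 21 Aux/IAA repressors (-0.25), none of 15 auxin response factors (-0.05), none of 4 auxin conjugation genes (-0.09) and none of 5 auxin synthesis genes (-0.42). Of 12 auxin transport genes, ABCB4, an auxin transporter, was higher (log2 change 0.87 ± 0.18, limma adjusted p = 0.0375) and none was lower, at a median of -0.64. Among the targets of SAUR proteins, none of 9 PP2C.D phosphatases passed in anac017 (median 0.09), and of 7 proton pumps AHA4 was higher (0.96 ± 0.18, limma adjusted p = 0.0253). In anac090, PP2C.D9 (1.20 ± 0.20, limma adjusted p = 0.0222) and PP2C.D8 (0.81 ± 0.14, limma adjusted p = 0.0280) were higher and none was lower. Also in anac090, IAA4 was the 1 lower Aux/IAA gene of 21 (-0.56 ± 0.13, limma adjusted p = 0.0378) and ARF8 the 1 lower response factor of 15 (-0.46 ± 0.12, limma adjusted p = 0.0498). With the block, beside 3.05% of all genes lower and 4.11% higher in anac017, 2 Aux/IAA repressors, 1 response factor, 1 conjugation gene, 3 transport genes, 1 phosphatase and 2 proton pumps were lower in anac017, and ABCB4 and AHA4 were the higher ones. The lower phosphatase was PP2C.D1 (-1.59, limma adjusted p = 0.0480). The lower pumps were AHA11 (-1.49, limma adjusted p = 0.0481) and AHA3 (-0.32, limma adjusted p = 0.0495). In anac090 with the block, beside 10.1% of all genes lower and 8.19% higher, 2 auxin receptors, 6 Aux/IAA repressors, 3 response factors, 1 synthesis gene and 4 transport genes were lower, and 2 conjugation genes and 2 phosphatases were higher.

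Growth regulators and wall genes included some lower members, beside 0.612% of all genes called lower in anac017 and 3.65% in anac090. Of 11 growth-promoting factors, BEE2, a bHLH factor that promotes cell elongation in brassinosteroid response, was lower in anac017 (-0.88 ± 0.17, limma adjusted p = 0.0277) and in anac090 (-1.09 ± 0.17, limma adjusted p = 0.0222), and no PIF gene passed without the block. The brassinosteroid synthesis enzyme BR6OX2 was the 1 of 7 genes lower in anac017 (-0.77 ± 0.16, limma adjusted p = 0.0419) and in anac090 (-0.73 ± 0.16, limma adjusted p = 0.0365). None of 8 CIN-type TCP factors passed in either line without the block. Of 14 expansins, which loosen acidified walls, EXPA4 was lower in anac017 (-1.22 ± 0.25, limma adjusted p = 0.0360). EXPA11 (-1.48 ± 0.36, limma adjusted p = 0.0406) and EXPA10 (-0.61 ± 0.15, limma adjusted p = 0.0418) were lower in anac090. The expansin median was -0.65 in anac017 and -0.75 in anac090, with 14 of 14 below 0 in each, beside 53.2% and 53.9% of all genes. Of 19 XTH genes, for enzymes that cut and rejoin wall xyloglucan, none passed in anac017 (median -0.35), and XTH7 (-1.75 ± 0.33, limma adjusted p = 0.0301) and XTH32 (-1.54 ± 0.33, limma adjusted p = 0.0349) were lower in anac090 (median -0.02). With the block, 2 growth-promoting factors, 1 brassinosteroid gene, 1 TCP factor, 2 expansins and 1 XTH gene were lower in anac017, beside 3.05% of all genes. In anac090, 4 growth-promoting factors, 4 brassinosteroid genes, 4 expansins and 3 XTH genes were lower with the block, beside 10.1% of all genes. Also with the block, 1 XTH gene was higher in anac017, beside 4.11% of all genes. In anac090, 1 brassinosteroid gene and 2 XTH genes were higher, beside 8.19% of all genes. In anac082 no gene of these lists passed, with or without the block.

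The cluster genes also share sequence upstream, which the choice of members did not use. The E-box CACATG, searched on both strands, occurred in the 250 bases before the start of 20 of 28 tested cluster genes (71.4%) and 1 of 14 tested single genes (7.1%), against 11.1% of 27443 protein-coding genes. The auxin response factor element TGTCNC was found for 13 of 28 cluster genes (46.4%), 1 of 14 single genes (7.1%) and 23.9% of all genes, and the TCP site GGNCCC for 9 of 28 cluster genes (32.1%), 0 of 14 single genes and 7.4% of all genes. The G-box CACGTG was found for 0 of 28 cluster genes and 1 of 14 single genes, against 6.5% of all genes, and the evening element AAATATCT for 0 of 28 cluster genes and 1 of 14 single genes, against 4.8% of all genes. The W-box core TTGACC was found for 3 of 28 cluster genes (10.7%) and 1 of 14 single genes, against 12.2% of all genes. Matches to different elements can overlap, as CACATG and TTGACC do before SAUR61. CACATG was present for all 7 tested genes of the chromosome 1 cluster and all 4 of SAUR26 to SAUR29, for 3 of 6 in the chromosome 5 cluster and for 2 of 3 in that of SAUR14 to SAUR16. Genes copied in tandem share their upstream sequence by descent, so these shares are not independent observations. The 21 tested members with CACATG had a median log2 change of -1.28 in anac017, -0.36 in anac082 and -0.95 in anac090, and the 21 without had -0.16 in anac017, -0.12 in anac082 and -0.13 in anac090. Of the 21 with the match, 20 are cluster genes, so this split is largely that of cluster and single genes. Among the cluster genes, the 8 without CACATG had a median of -1.25 in anac017, -0.30 in anac082 and -0.52 in anac090, and the 20 with it had -1.28 in anac017, -0.37 in anac082 and -0.95 in anac090. SAUR16 and SAUR12 hold no CACATG match and were lower in anac017, and SAUR9 holds a match and was higher in anac090. The part of the match in the SAUR differences was not tested. A match describes letters in this window and is not a bound site.

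**Figure D5:**
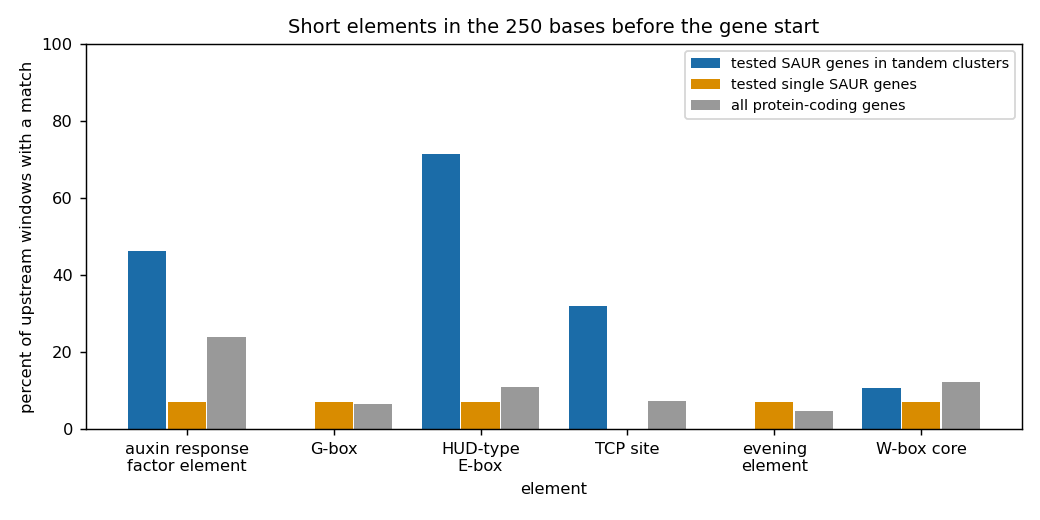
Percent of 250-base upstream windows with a match on either strand (vertical axis) for 6 short elements, in the 28 tested SAUR genes of tandem clusters, the 14 tested single SAUR genes and all protein-coding genes. The E-box CACATG is present in 71.4% of the cluster genes, against 11.1% of all genes.

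The 36 SAUR genes that were not tested were near the floor of the table. Of these, 9 were listed at 0 in all 12 libraries and 33 in at least 1, and their highest mean log2 value was 0.93 and highest single value 1.63. Of the 42 tested, 9 passed the level in some groups only, SAUR61, SAUR7, SAUR12, SAUR36, SAUR28, SAUR27, SAUR26, SAUR34 and SAUR1, and for these a low group is close to the floor.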

How the data were processed

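Leaf RNA of 12 libraries was analysed, 3 each of anac017, anac082, anac090 and wild type, grouped and numbered by their titles. Stranded TruSeq libraries of poly(A) RNA were sequenced on an Illumina HiSeq, per the labels' protocols. Per the submitters' processing notes, the build is TAIR10 and the tools are TopHat, Cufflinks and CASAVA 1.8.2, whose roles are not stated. The deposited table holds log2 values, treated as log2(abundance + 1), where the sources used here do not give the unit of the abundance. At the same rank the libraries differ by at most 0.082, so the values had been quantile normalized between libraries. Depth is unknown, and no interval or floor that needs it is given. Of 33726 entries, 529 (1.57%) carry no gene identifier and were left out.

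The 16817 genes whose back-transformed values averaged 1 or more were tested with limma 3.58.1 in R 4.3.3 (lmFit, eBayes with a mean-variance trend), in 1 model of the 4 groups. The scale has a pseudocount of 1 built in, so fold changes understate those of low genes. Adjusted p-values are Benjamini-Hochberg over all genes tested, with a threshold of 0.05. The limma step was tested on simulated data. SAUR genes, the other gene lists and the naming rule were chosen with earlier results of these data known. Named were the SAUR genes past the threshold against wild type and the 10 tested with the highest mean. SAUR36, SAUR49, the targeted genes and up to 4 called genes of each other list were also named. SAUR1, SAUR9, SAUR19, SAUR30, SAUR31, SAUR60 and SAUR78 in comparisons where they did not pass were picked out after their values were seen. Upstream sequence came from RefSeq (TAIR10.1), whose genes were found for all 78 members; for 72 the coding span lies within the span of the deposited table.

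Replicate numbers are shared between groups. Deviations from the group means of same-numbered libraries correlated over 0.1 in 17 of 18 pairs (-0.31 to 0.50), in all pairs of every comparison except anac082 against anac090, so the numbers were taken to pair the libraries there, from the data and not from the labels. The main fit does not use this pairing. Calls given without mention of the block come from that unpaired fit, and the replicate block is the fit that uses the pairing. The alternatives tried were another pseudocount, other filters, the replicate block, only 2 groups, library weights, median centring, no trend and leaving out libraries.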

Additional observations from a re-analysis of the deposited data

How the results depend on the processing

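Every SAUR change that passed kept its direction in the alternatives that gave it a value, and the filter at 5 gave none for SAUR9, SAUR12, SAUR61 and SAUR67. The sign of every median held under each alternative, with 1 exception: the median of anac082 against anac090, 0.28, was -0.03 when both libraries that stand apart (anac082 replicate 1, anac090 replicate 3) were left out, an alternative chosen after seeing the data. Counts of calls moved widely. For anac017 against wild type, the 5 lower members were 0 with no filter, 3 with a filter at 5, 27 with only these 2 groups in the fit, 18 with the replicate block, 27 with weights per library, 24 without both of these libraries and 0 to 23 without single libraries; higher members, 0 as reported, were 4 with only 2 groups, 1 with the block, 3 with weights, 3 without both libraries and 0 to 2 without single ones. For anac082 against wild type, weights gave 1 higher and 2 lower, and leaving out both libraries 3 lower. For anac090 against wild type, the 7 lower members were 0 with no filter, 0 with only 2 groups, 13 with the block, 20 with weights, 3 without both libraries and 0 to 19 without single ones, and the 1 higher member was 0 with no filter, with a filter at 5 or with only 2 groups, 3 with the block, 7 with weights and 0 to 6 without single libraries. For anac017 against anac082, 0 higher became 2 with the block, 2 with weights, 2 without both libraries and 0 to 1 without single ones, and 1 lower became 0 with no filter or a filter at 5, 5 with only 2 groups, 2 with the block, 9 with weights, 3 without both and 0 to 4 without single ones. For anac017 against anac090, 2 higher became 1 with no filter, 0 with only 2 groups and 0 to 2 without single libraries, and 1 lower became 0 with no filter, a filter at 5 or only 2 groups, 15 with weights, 3 without both libraries and 0 to 2 without single ones. For anac082 against anac090, weights gave 7 higher and 3 lower. Shares over all genes moved with these counts: with weights, 14.2% were lower and 13.0% higher in anac017 against wild type, 23.8% and 21.1% in anac090 against wild type, 1.5% and 2.52% in anac082 against wild type, 1.99% and 3.6% in anac017 against anac082, 11.1% and 11.9% in anac017 against anac090, and 10.8% and 11.8% in anac082 against anac090. With only 2 groups, 11.2% were lower and 10.3% higher in anac017 against wild type. That setting gave 0.00595% lower and 0.0119% higher in anac090 against wild type. It gave 0.232% lower in anac017 against anac082, and 0.00595% lower and 0.0714% higher in anac017 against anac090. Without both libraries, 0.214% were lower and 0.969% higher in anac017 against anac082, and 0.244% lower in anac017 against anac090. With no filter all 78 members enter, many at 0, and the medians were -0.14 (anac017) and -0.06 (anac090) against wild type, -0.10 for anac017 against anac082 and -0.13 for anac017 against anac090. Of all genes without a filter, 0.108% (anac017) and 0.012% (anac090) were lower against wild type. The shares were 0.0482% lower in anac017 against anac082, and 0.0663% lower and 0.485% higher in anac017 against anac090. Leaving out single libraries gave medians of -0.79 to -0.46 for anac017 against anac082 and -0.63 to -0.14 for anac017 against anac090, and leaving out both gave -0.46 and -0.63. All SAUR genes reported as passing also passed with the block. Some of these settings use fewer libraries or test more genes. The cause of the shifts was not tested for any setting. Another pseudocount, median centring and no trend kept every count within 1.5 times. Depth could not be assessed, and single values were not tested as outliers within groups of 3 libraries.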
